A study of Mus musculus with 8 samples.

Results

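The genes described here are the MiT/TFE transcription factors Tfeb, Tfe3 and Mitf and 5 of their regulators, Flcn, Fnip1, Fnip2, Zkscan3 and Mcoln1. They were chosen by name, as factors of lysosome biogenesis and its control, and are 8 of the 55276 gene symbols in a bulk RNA-seq count table. The table holds 8 libraries of mouse esophageal epithelium, 4 of cells sorted as Cyto-ID Low and 4 of cells sorted as Cyto-ID High. Cyto-ID is a dye that accumulates in autophagic vesicles, and the series asks how basal cells rich in such vesicles differ from the others. Both fractions came from C57BL6 mice of 14 to 15 weeks of age (2 females and 2 males), and the labels name no allele, drug or other treatment. Both were gated as DAPI negative, hence alive, and as positive for integrin beta-1. Each animal, named Female1, Female2, Male1 or Male2, gave 1 library of each fraction.

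MiT/TFE proteins are basic helix-loop-helix leucine zipper factors that bind E-box sequences, among them the CLEAR element found before many lysosomal genes. In fed cells the kinase mTORC1, held on the lysosome by the Rag GTPases, phosphorylates Tfeb and Tfe3, and 14-3-3 proteins then keep them in the cytosol. The folliculin protein (Flcn), bound to its partners Fnip1 or Fnip2, activates the Rag GTPases that present the factors to mTORC1. Calcium released through the lysosomal channel Mcoln1 activates the phosphatase calcineurin, which removes these phosphates and lets the factors enter the nucleus. Zkscan3 is a zinc-finger protein described as a repressor of autophagy and lysosome genes. Transcript counts do not show phosphorylation or location in the cell, and so they report on only 1 layer of this circuit.

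Library totals ran from 26285150 to 29301054 counts. The 8 genes were all above the filter on low counts, and no exon of another gene overlaps theirs in the GENCODE M21 annotation of GRCm38. Markers of the sorted tissue were present in every library, but they parted the fractions strongly. All 8 genes of a basal keratinocyte list (Krt5 and Trp63 among them) were lower in Cyto-ID High, with a median log2 fold change of −2.63, and all 8 of a suprabasal list (Krt4, Krt13 and others) were higher, with a median of 3.16. Itgb1, the gene of the integrin used for the gate, is on the basal list and fell from 370.2 ± 31.6 to 68.2 ± 18.3 CPM (SD, n = 4 per fraction), a log2 difference of −2.44 (SE 0.21, adjusted p by edgeR 2.16e-05) that was negative in 4 of 4 animals. The part of this difference in layer in the results below was not tested. In bulk RNA, fewer cells of a type and less RNA per cell cannot be told apart. The High library of Male2 stood apart from the other High libraries, with 22208 genes detected where they had 24820 to 27395, and results that turn on it are given without it too.

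The genes lie on 7 chromosomes of GRCm38. Tfeb is at chr17:47737030-47792419, Tfe3 at chrX:7762560-7775202 and Mitf at chr6:97807052-98021349. Flcn and Fnip1 are both on chromosome 11, at chr11:59791408-59810016 and chr11:54438199-54518235, and Fnip2 is at chr3:79455974-79567796. Zkscan3 is at chr13:21387003-21402755 and Mcoln1 at chr8:3500457-3515232. All 8 are protein-coding, and counts were given per gene symbol, so isoforms such as those of Mitf could not be told apart.

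One member carries the CLEAR letters in its promoter. RefSeq promoters (GRCm38.p6, 250 bases before to 50 bases after each start site) were found for 7 of the 8 genes, all but Zkscan3. They were searched on both strands for the palindrome TCACGTGA, for its core CACGTG, which lies within it, and for CATGTG, the core of the M-box that Mitf also binds. Only Mcoln1 held TCACGTGA, beginning 46 bases before the start site, and it held a second CACGTG 71 bases before it. Fnip1 held CACGTG 75 bases before its start site. The promoters of Tfeb, Tfe3, Mitf, Flcn and Fnip2 held none of the 3 motifs, and no member held CATGTG. Among all 32851 promoters, TCACGTGA was in 0.974%, CACGTG in 7.15% and CATGTG in 14.2%. A match of letters does not show a bound site. The Mcoln1 promoter, at chr8:3500269-3500568 on the plus strand, is printed with both motifs in capitals, because it is the only member promoter that held the full palindrome. Windows of 30 bases around the motif in Fnip1 and in 5 lysosomal genes from a list of reported CLEAR targets are printed for comparison. Of the 8 such targets with TCACGTGA, Ctsd, Atp6v0d1, Clcn7 and Atp6v1a were taken for their rises in Cyto-ID High, the largest of the 8, and Gla, with a pair of sites, as the 1 that did not pass. All windows are shown with CACGTG or TCACGTGA in capitals.
Mcoln1 promoter: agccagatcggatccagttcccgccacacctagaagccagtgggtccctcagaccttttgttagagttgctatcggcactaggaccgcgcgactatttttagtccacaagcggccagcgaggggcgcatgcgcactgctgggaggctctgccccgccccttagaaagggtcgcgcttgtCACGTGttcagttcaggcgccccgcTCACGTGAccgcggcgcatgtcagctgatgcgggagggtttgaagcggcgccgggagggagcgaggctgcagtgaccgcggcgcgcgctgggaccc
Mcoln1 (chr8:3500462-3500491, plus strand): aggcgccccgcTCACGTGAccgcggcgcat
Fnip1 (chr11:54438092-54438121, plus strand): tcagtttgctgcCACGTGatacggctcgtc
Ctsd (chr7:142387908-142387937, minus strand): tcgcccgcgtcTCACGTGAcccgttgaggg
Atp6v0d1 (chr8:105566050-105566079, minus strand): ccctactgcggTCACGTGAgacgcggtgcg
Clcn7 (chr17:25133386-25133415, plus strand): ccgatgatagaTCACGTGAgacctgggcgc
Atp6v1a (chr16:44139373-44139402, minus strand): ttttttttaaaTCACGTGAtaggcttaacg
Gla (chrX:134601215-134601244, minus strand): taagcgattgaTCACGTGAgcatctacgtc
Gla (chrX:134601182-134601211, minus strand): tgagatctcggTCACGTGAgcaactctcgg

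The comparison of Cyto-ID High with Cyto-ID Low asks whether the transcripts of this circuit differ between cells with many and with few autophagic vesicles. Of the 8 genes, Tfe3, Fnip2 and Mcoln1 rose in Cyto-ID High, by 1.97-fold, 2.24-fold and 1.79-fold, and 5 did not pass the threshold (edgeR's quasi-likelihood test with sex as a covariate, Benjamini-Hochberg adjusted p under 0.05). The fractions were far apart in general. Of 17344 genes tested 48.7% passed, 23.4% as higher and 25.3% as lower, so 3 of 8 is not above the share passing in either direction. All 3 were rises, and 3 of 8 lies above the 23.4%, a difference that was not tested. The same 3 genes were those whose 4 High and 4 Low libraries did not overlap in CPM (counts relative to library size, after edgeR's TMM scaling), which held for 48.6% of all genes. The levels of the 8 genes in each library are plotted in the panels that follow.

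**Figure D1:**
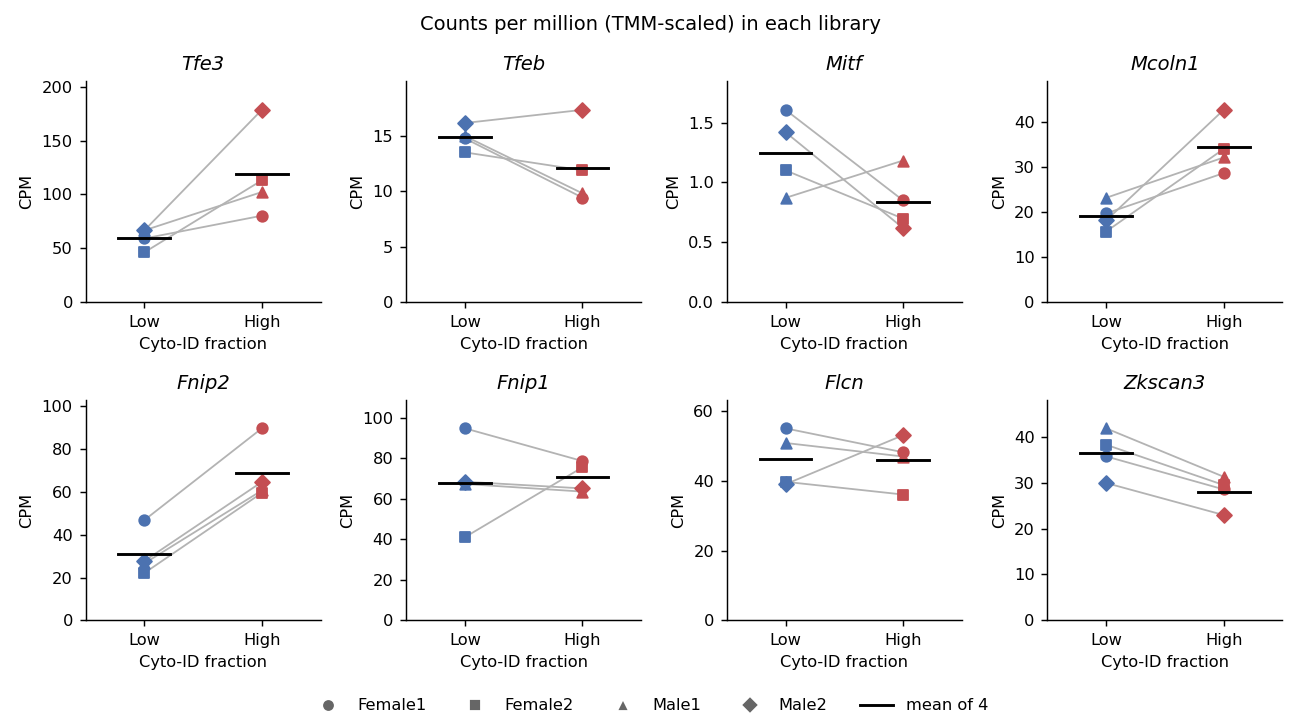
CPM (TMM-scaled, axis from 0) of each gene in the Cyto-ID Low (blue) and High (red) libraries, with 1 symbol per animal, grey lines joining the libraries of an animal and black bars for the mean of 4. Tfe3, Mcoln1 and Fnip2 rise in every animal without overlap of the fractions, and Zkscan3 is lower in every High library than in the Low library of the same animal.

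Among the transcription factors, Tfe3 was the most abundant and the only one to rise. Its Low libraries had 58.9 (Female1), 46.0 (Female2), 66.5 (Male1) and 66.4 CPM (Male2), and the High libraries of the same animals 80.1, 113, 102 and 179 CPM. Each High library lay above all Low libraries, and Male2 was the highest. The mean rose from 59.4 ± 9.6 to 118 ± 42 CPM (SD, n = 4 per fraction), which was a log2 difference of 0.98 (SE 0.20, adjusted p by edgeR 0.0029). The size differed between animals, with log2 differences of 0.44 and 0.62 in Female1 and Male1 and of 1.30 and 1.43 in Female2 and Male2.

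Tfeb, the factor from which most of the pathway is named, was at 14.8, 13.5, 15.0 and 16.2 CPM in the Low libraries of Female1, Female2, Male1 and Male2. The High libraries had 9.42, 11.9, 9.80 and 17.3 CPM. On this TMM scale they were lower than their Low partner in 3 of 4 animals, while the High library of Male2 was the highest of all 8. Counts before scaling did not overlap, with 478 to 535 in the Low and 244 to 337 in the High libraries, and High Male2 had 337. The means were 14.8 ± 1.1 and 12.1 ± 3.7 CPM (SD, n = 4 each), and the log2 difference was −0.30 (SE 0.19, adjusted p by edgeR 0.227). Without the High library of Male2 the value was −0.51 and passed (adjusted p by edgeR 0.0336), while it was −0.17 without High Male1 (adjusted p by edgeR 0.487) and −0.21 without High Female1.

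Mitf, best known for its part in melanocytes and mast cells, was scarce, with 28 to 52 counts in the Low and 12 to 31 in the High libraries. Its level was 1.61, 1.10, 0.870 and 1.42 CPM in Low and 0.849, 0.697, 1.18 and 0.617 CPM in High, in the order Female1, Female2, Male1 and Male2. It was lower in High in every animal except Male1, and the fractions overlapped. The log2 fold change of −0.57 (SE 0.35, adjusted p by edgeR 0.215) did not pass, and its 95% interval ran from −1.35 to 0.21. Tfec, the other member of the family, had 14 counts or fewer in every library and was left out by the filter.

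Since Mitf is used by other cells, markers of melanocytes, mast cells, and macrophages and dendritic cells were read beside it. Of the melanocyte list 7 of 8 genes were tested and 1, Pmel, was lower, and its summed level was 7.33 to 11.3 CPM in Low and 1.39 to 11.8 CPM in High. None of the 7 tested mast cell genes passed (edgeR's quasi-likelihood test, 0 also at an unadjusted p under 0.05), with sums of 8.70 to 17.1 CPM in Low and 1.23 to 22.7 CPM in High. Of the 10 macrophage and dendritic cell genes 1 was higher (Cd68, which encodes a lysosomal membrane protein) and 1 lower (Cd207), with sums of 42.3 to 65.9 and 21.8 to 96.9 CPM. In the High library of Male2, which had the fewest Mitf counts, Tyr, Tyrp1, Mlana, Sox10, Slc45a2 and Kit were at 0 counts, Dct was at 4 and Pmel at 23, beside 24 for Pmel in High Female2. In Female1 the melanocyte sum was 11.3 CPM in Low and 11.8 CPM in High, while Mitf had 52 and 22 counts. No gene of the 3 lists was at 0 in every library. The part of these cells in the level of Mitf was not tested.

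Ratios between paralogues within a library do not depend on how libraries are scaled, and they showed a change in the makeup of the family. Per exon length, Tfe3 made up 68.9% ± 2.7 of the summed MiT/TFE transcripts (Tfeb, Tfe3, Mitf and Tfec) in the Low fraction, against 84.4% ± 1.6 in the High fraction (SD, n = 4 per fraction). The share of Tfeb was 28.4% ± 2.1 in Low and 14.3% ± 1.1 in High, that of Mitf 2.19% ± 0.58 and 0.998% ± 0.472. The Mitf shares overlapped, with Male1 at 1.41% in Low and 1.47% in High. In single libraries Tfeb took 27.99%, 31.4%, 26.5% and 27.7% in Low and 15.8%, 14.5%, 13.3% and 13.6% in High, in the order Female1, Female2, Male1 and Male2. The Tfeb shares did not overlap between the fractions, and Male2 lay among the others on this measure.

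On the log2 scale the ratio of Tfeb to Tfe3, per length, was −1.28 ± 0.16 in Low and −2.56 ± 0.13 in High (SD, n = 4 each), a difference of −1.28 that was negative in 4 of 4 animals. An exact two-sided permutation test over the 8 libraries gave p = 0.0286, the smallest that 4 against 4 allows, and 0.0381 when adjusted over the 4 ratios computed. Pairing the libraries by animal gave p = 0.125 by an exact sign permutation, the smallest that 4 animals allow, for this ratio, for Mitf to Tfe3 and for Fnip2 to Fnip1. Without Low Female1, Low Female2, Low Male2, High Female2 or High Male2 the adjusted p of these 3 ratios was 0.0571 or 0.0762, and without any other single library it was 0.0381. The ratio of Mitf to Tfe3 differed by −1.51 with the same exact p and adjusted p and a spread of 1.02 between animals (SD, n = 4), being −5.65 in Low and −5.83 in High for Male1, and that of Mitf to Tfeb by −0.23 (exact permutation p = 0.686, adjusted p 0.686), with a spread of 0.96 between animals (SD, n = 4). Thus Tfe3 stood higher against both Tfeb and Mitf in Cyto-ID High, while a shift between Tfeb and Mitf was not detected.

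**Figure D2:**
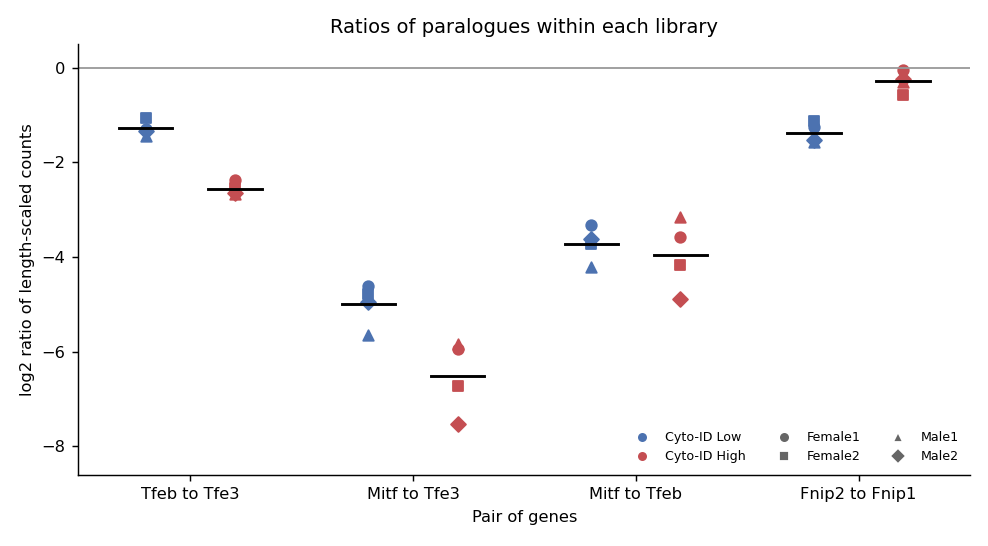
Log2 ratio of length-scaled counts for 4 pairs of genes in each Cyto-ID Low (blue) and High (red) library, with 1 symbol per animal and black bars for the mean of 4. Tfeb to Tfe3 sits near −1.28 in Low and −2.56 in High, Fnip2 to Fnip1 near −1.37 and −0.29, and Mitf to Tfeb overlaps between the fractions.

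Among the folliculin complex genes Fnip2 passed, and Fnip1 and Flcn did not, which as a share is not above the 48.7% of all genes that passed in either direction. The share of all genes that were higher, as Fnip2 was, is 23.4%, and no test was made against it. Under total counts it was Flcn that passed (−0.56) and not Fnip2 (adjusted p by edgeR 0.0527). Fnip2 was at 46.7, 22.1, 26.6 and 27.7 CPM in the Low and 89.6, 59.5, 60.6 and 64.6 CPM in the High libraries of Female1, Female2, Male1 and Male2. All High libraries lay above all Low libraries, and Female1 was the highest in both fractions. The mean rose from 30.8 ± 10.9 to 68.5 ± 14.2 CPM (SD, n = 4 per fraction), which was a log2 difference of 1.16 (SE 0.23, adjusted p by edgeR 0.00219). The rise per animal was even, at 1.19 ± 0.20 log2 CPM (SD, n = 4).

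Fnip1, its paralogue, was at 94.8, 41.1, 67.3 and 68.4 CPM in Low and 78.6, 75.5, 63.6 and 65.1 CPM in High. Low Female1 was the highest and Low Female2 the lowest of the 8 libraries, and the fractions overlapped. The log2 fold change was 0.05 (SE 0.23, adjusted p by edgeR 0.877) with a 95% interval of −0.45 to 0.56, which excludes a rise of the size seen for Fnip2. The log2 ratio of Fnip2 to Fnip1, per length, went from −1.37 ± 0.22 in Low to −0.29 ± 0.22 in High (SD, n = 4 each), a difference of 1.08 in the same direction in 4 of 4 animals (exact permutation p = 0.0286, adjusted p 0.0381).

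Flcn itself was at 55.0, 39.7, 50.8 and 39.0 CPM in Low and 48.2, 36.1, 46.9 and 53.0 CPM in High, in the order Female1, Female2, Male1 and Male2. The values overlapped, with Male2 the 1 animal in which High was above Low. The means of 46.1 ± 8.0 and 46.0 ± 7.2 CPM (SD, n = 4 each) gave a log2 fold change of −0.01 (SE 0.17, adjusted p by edgeR 0.978), with a 95% interval of −0.39 to 0.38. Changes of more than 0.39 on the log2 scale in either direction therefore lay outside the interval under TMM scaling.

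Mcoln1, the calcium channel of the lysosomal membrane, rose in every animal. It was at 19.7, 15.6, 23.1 and 18.1 CPM in the Low and 28.6, 34, 32.1 and 42.7 CPM in the High libraries of Female1, Female2, Male1 and Male2. The lowest High library, Female1, was above the highest Low library, Male1. The mean went from 19.1 ± 3.1 to 34.4 ± 6.0 CPM (SD, n = 4 per fraction), which was a log2 difference of 0.84 (SE 0.16, adjusted p by edgeR 0.0016). As for Tfe3, the difference was larger in Female2 and Male2, at 1.12 and 1.23, than in Female1 and Male1, at 0.54 and 0.47. Markers of other cells parted the High libraries the same way. The summed level of 7 fibroblast genes was 473 and 340 CPM in High Female1 and Male1, 160 in High Female2 and 55.4 in High Male2, and 382 to 542 CPM in the Low libraries. For 9 leukocyte genes it was 171 and 119 CPM in High Female1 and Male1 and 72.9 and 12.04 in High Female2 and Male2, against 66.2 to 132 CPM in Low. The 6 endothelial genes (27.6 and 17.2 against 9.19 and 2.16 CPM) and the 8 muscle genes (63.3 and 41.6 against 22.4 and 6.95 CPM) had the same order. Of the genes tested in these 4 lists 2 fibroblast genes and 1 muscle gene were lower and the others did not pass. The suprabasal sum was 138900 and 141100 CPM in High Female1 and Male1 and 184600 and 239100 CPM in High Female2 and Male2. The TMM factors of these libraries were 0.944 and 0.896 against 0.792 and 0.679. Before scaling, Mcoln1 had 742 and 842 counts in High Female1 and Male1 and 781 and 830 in High Female2 and Male2. The part of other cells, of layer and of scaling in the sizes seen for Tfe3 and Mcoln1 was not tested. Across the 8 libraries the log2 CPM of Mcoln1 and Tfe3 had a Pearson r of 0.959. The points share the contrast of the fractions, and no test is attached to this value.

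Zkscan3, the repressor, was at 35.7, 38.2, 41.8 and 29.9 CPM in Low and 28.5, 29.5, 31.3 and 22.9 CPM in High, in the same order of animals. The ranges overlapped because Low Male2 lay below High Male1, yet every animal had less in High, by 0.32, 0.37, 0.42 and 0.38 on the log2 scale, a mean of −0.37 ± 0.04 log2 CPM (SD, n = 4). With sex as a covariate the log2 fold change of −0.38 (SE 0.15) did not pass (adjusted p by edgeR 0.0684). With the animal as a block, which takes out the differences between animals, it was −0.38 (SE 0.10) and passed (adjusted p by edgeR 0.0124).

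**Figure D3:**
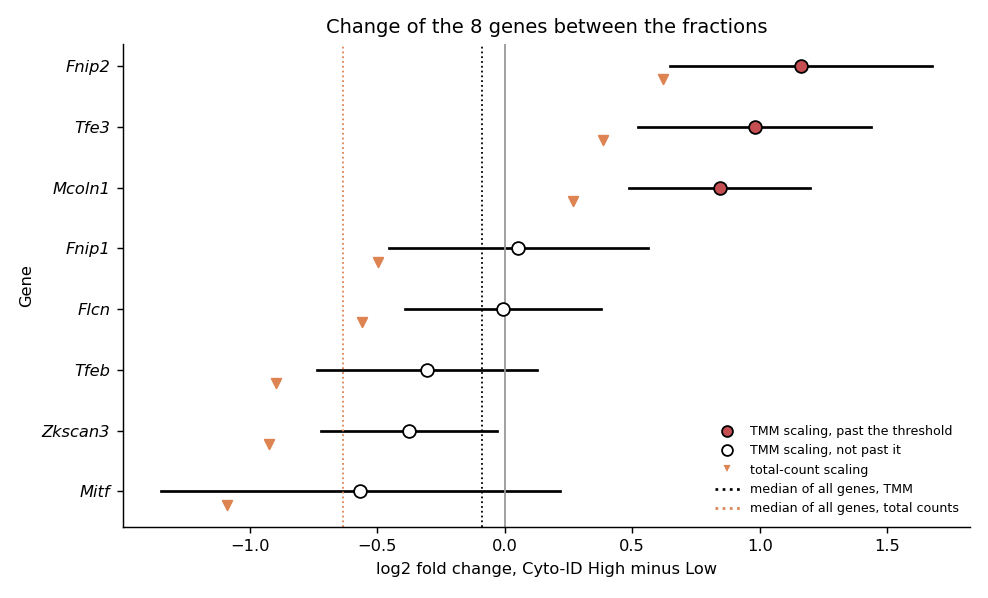
Log2 fold change of Cyto-ID High minus Low for the 8 genes, with the 95% interval of the TMM-scaled fit as bars (filled circles are past the threshold) and the value under scaling by total counts as triangles. The dotted lines are the medians of all genes tested, at −0.09 (TMM) and −0.64 (total counts). The 3 genes that passed lie to the right of the median of the same scaling in both fits. So do Fnip1 and Flcn, which did not pass under TMM.

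Scaling bears on the direct comparisons, since the TMM factors were 1.16 to 1.30 in the Low and 0.679 to 0.944 in the High libraries, and none overlapped. With total counts as the only scaling, the median of all genes moved by −0.55 on the log2 scale, and the share of the genes passing that were higher went from 48.05% to 20.5%. Under that scaling 1 member rose (Tfe3, 0.38, adjusted p by edgeR 0.0295) and 4 fell. The 4 were Tfeb (−0.90, adjusted p by edgeR 0.000569), Mitf (−1.09, 0.0373), Flcn (−0.56, 0.0247) and Zkscan3 (−0.92, 0.00311). Mcoln1 was at 0.27 (adjusted p by edgeR 0.0928) and Fnip2 at 0.62 (adjusted p by edgeR 0.0527), and Fnip1 had a negative value of −0.50. A change of scaling shifts all genes by nearly the same amount. Distances from the median of all genes are therefore nearly fixed and do not test the scaling. Tfe3 stood 1.07 above this median under TMM and 1.02 under total counts, Fnip2 1.25 under both, Mcoln1 0.93 and 0.90, and Tfeb −0.21 and −0.26 from it.

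In order of level per exon length (RPKM from TMM-scaled counts), the Low fraction had Flcn first at 10.7 ± 1.9, then Fnip1 at 9.54 ± 3.08, Tfe3 at 6.42 ± 1.04, Zkscan3 at 4.57 ± 0.63, Fnip2 at 3.68 ± 1.31, Tfeb at 2.62 ± 0.19, Mcoln1 at 2.53 ± 0.42 and Mitf at 0.202 ± 0.053 (SD, n = 4 each). Each of these overlapped with the next in its range over libraries, except that Mitf lay below Mcoln1 in every library. In the High fraction Tfe3 came first at 12.8 ± 4.6 RPKM, followed by Flcn (10.7 ± 1.7), Fnip1 (9.93 ± 1.05), Fnip2 (8.20 ± 1.70), Mcoln1 (4.55 ± 0.79), Zkscan3 (3.52 ± 0.45), Tfeb (2.14 ± 0.64) and Mitf (0.135 ± 0.040). Here Fnip2 lay above Mcoln1 and Tfeb above Mitf in all libraries, and the other neighbours overlapped.

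Male and female animals were compared with an interaction of sex and fraction, and no dependence on sex was detected for any member. Of all 17344 genes 0 passed (0%, edgeR's quasi-likelihood test), with 19 at an unadjusted p under 0.05, none of them a member. The unadjusted count depended on single libraries, at 1197 without High Male1, 221 without Low Male2 and 190 without Low Female1, the last with 1 member among them. The male minus female difference of the log2 fold changes ran from −0.26 (SE 0.48) for Fnip1 to 0.47 (SE 0.75) for Mitf. The SE of that difference ran from 0.34 for Zkscan3 to 0.75 for Mitf. With 2 animals of each sex, differences of this size between the sexes were not detectable.

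The genes around the factors were counted in 6 lists, beside all genes tested, of which 23.4% were higher and 25.3% lower with a median log2 fold change of −0.09. The counts of the E-box factors and of the phosphatases lie near those shares. In the nutrient switch that hands the factors to mTORC1 (Rag GTPases, Ragulator, mTORC1 and TSC genes), 14 of 15 genes were tested, 6 were higher and 0 lower, with a median of 0.43. Under total counts, where the median of all genes was −0.64, this median was −0.15, and those of the retention, phosphatase, channel and E-box lists that follow were −0.18, −0.35, −0.13 and −0.78. Lamtor1, a Ragulator subunit that anchors the complex in the lysosomal membrane, rose from 25.0 ± 3.8 to 53.7 ± 6.4 CPM, which is 1.10 on the log2 scale (SE 0.16, adjusted p by edgeR 0.000311). Slc38a9, the arginine sensor of the lysosome, rose by 1.09 (SE 0.16, adjusted p by edgeR 0.000434). Exons of Lrrc51 overlap 18.7% of those of Lamtor1 on the other strand, and whether the counting used the strand is not given in the sources used here. Rragd, a Rag GTPase that is itself a reported MiT/TFE target, was at 0.72 (SE 0.47, adjusted p by edgeR 0.240) and did not pass.

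Of 16 genes for kinases, 14-3-3 proteins and others that act on the factors in the cytosol or export them, 8 were higher and 2 lower (median 0.40). Mapk3, the kinase ERK1, rose by 1.51 (SE 0.21, adjusted p by edgeR 0.000246). Sfn, the 14-3-3 protein of stratified epithelia, went from 2137 ± 653 to 4648 ± 1670 CPM (SD, n = 4 each), a rise of 1.12 (SE 0.26, adjusted p by edgeR 0.0054). Another 14-3-3 gene, Ywhah, fell by 1.21 (SE 0.15, adjusted p by edgeR 0.000154), and the nuclear exporter Xpo1 fell by 0.62 (SE 0.20, adjusted p by edgeR 0.0257). Their members thus went in both directions.

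Among 9 genes of the phosphatases calcineurin and PP2A, 3 were higher and 1 lower (median 0.23). The median was 0.057 without Low Female2, 0.10 without High Male2 and 0.36 without High Male1. The 3 were PP2A subunits, with Ppp2ca at 0.67 (SE 0.18, adjusted p by edgeR 0.0104) and Ppp2r1a at 0.53 (SE 0.19, adjusted p by edgeR 0.0406) beside Ppp2cb at 0.52, and 39.9% of the exon bases of Ppp2ca overlap a non-coding gene on the other strand. The catalytic calcineurin subunit Ppp3cb fell from 84.2 ± 10.0 to 36.4 ± 9.5 CPM, which is 1.21 on the log2 scale (SE 0.19, adjusted p by edgeR 0.000648). Of 8 further lysosomal channels and genes of their activating lipid, 6 were tested, 3 were higher and 1 lower (median 0.43). That median was 0.11 to 0.34 whichever single library was left out, lowest without High Female2, and 0.09 with no filter on low counts. The sodium and calcium channel Tpcn1 rose from 21.6 ± 5.4 to 105 ± 34 CPM, which is 2.27 on the log2 scale (SE 0.26, adjusted p by edgeR 9.44e-05), more than Mcoln1, whereas Mcoln2 and Mcoln3 were below the filter. Fig4, a phosphatase of the complex that makes the lipid, rose by 1.01 (SE 0.18, adjusted p by edgeR 0.00139). Inpp5e was lower at −1.09, and 20.3% of its exons overlap those of Pmpca on the other strand.

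Of 7 related E-box factors 6 were tested, with 1 higher and 2 lower (median −0.19). The median was −0.36 without Low Male1 and 0.0098 without Low Male2. Max, the partner of Myc proteins, rose by 1.00 (SE 0.17, adjusted p by edgeR 0.000852). Usf1, which binds the same core, fell by 0.52 (SE 0.13, adjusted p by edgeR 0.00962), with 7.13% of its exons shared with Tstd1 on the same strand. The other gene that fell was Bhlhe41, a repressor of the circadian clock, at −1.44.

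Of 44 genes reported as CLEAR targets 43 were tested, 26 of them higher and 8 lower, with a median of 0.56, and within the animals the median ran from 0.42 to 0.83 log2 CPM. Atp6v0d1, a subunit of the proton pump, rose from 55.4 ± 15.6 to 304 ± 68 CPM, which is 2.46 on the log2 scale (SE 0.24, adjusted p by edgeR 3.72e-05). Others went down. Gpnmb, a transmembrane glycoprotein often read as a marker of MiT/TFE activity, fell from 253 ± 62 to 25.4 ± 11.7 CPM (SD, n = 4 per fraction), which was a log2 difference of −3.33 (SE 0.31, adjusted p by edgeR 2.69e-05). Gusb, a lysosomal glucuronidase, fell by 1.24 (SE 0.24, adjusted p by edgeR 0.00197). Under total counts the median of the list was 0.00 beside −0.64 for all genes.

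**Figure D4:**
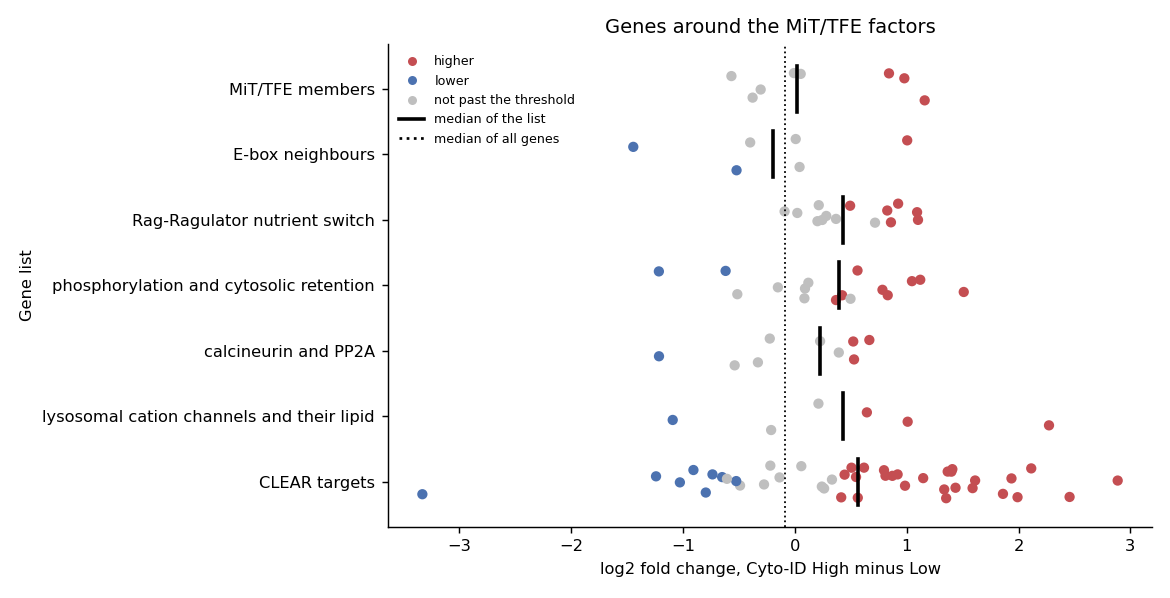
Log2 fold change of Cyto-ID High minus Low for each tested gene of the 8 members and of 6 lists around them, with red for higher, blue for lower and grey for not past the threshold. Black bars are the list medians, which run from −0.19 (E-box neighbours) to 0.56 (CLEAR targets), and the dotted line is the median of all genes at −0.09.

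The targets with the full TCACGTGA in a RefSeq promoter numbered 8. Of these 7 were higher and 0 lower, with a median of 1.38. Besides Atp6v0d1 they were Ctsd at 1.99 (SE 0.20, adjusted p by edgeR 4.07e-05), Clcn7 at 1.61 (SE 0.14, adjusted p by edgeR 1.96e-05), Atp6v1a at 1.40 (SE 0.16, adjusted p by edgeR 8.82e-05), Ctsa at 1.35 (exons overlap Pltp on the other strand by 10.5%), Cln3 at 0.62 and Atp6v0e at 0.56, and the 1 that did not pass was Gla at 0.26 (SE 0.24, adjusted p by edgeR 0.414). Exons of Gm49369 overlap 34.4% of those of Ctsd on the same strand, but this gene had at most 1 count. The other 35 tested targets, which lack the motif or have no promoter in the table, were higher in 19 and lower in 8, with a median of 0.44. Over all genes the motif went with little difference. Of 236 tested genes that hold TCACGTGA, 28.8% were higher and 23.3% lower with a median of −0.02, where the 11260 genes with any promoter in the table had 25.4%, 28.03% and −0.10. Mcoln1 is among the 236. So are Rcan1 and Vac14, of the phosphatase and channel lists, at 0.23 and −0.21 and not past the threshold.

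The genes whose pattern over the 8 libraries was most like that of a member were taken from 10000 genes with a mean of at least 5 CPM, by Pearson r of log2 CPM, as a description. For Tfe3 they were Midn (0.994), Samd4b (0.989) and Kremen1 (0.988), and for Mcoln1 they were Atg4b (0.991), Fbxo7 (0.990) and Sec24d (0.987), where Atg4b encodes the protease that trims LC3-type proteins. Fnip2 was most like H2-T10 (0.977), Uqcr10 and Uqcrq (0.9754 and 0.9744). Zkscan3 was nearest to Mkks (0.972), Xpo1 (0.971) and Etaa1 (0.964), Tfeb to Sp2 (0.990), Axin1 (0.989) and Gar1 (0.987). For Flcn and Fnip1 the nearest were Snrnp70 (0.958) and Zcchc10 (0.976), while no gene passed 0.844 (Ptprk) for the scarce Mitf.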

How the data were processed

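Raw counts per gene symbol were deposited by the authors for 8 libraries. That they are raw was read from the values, all integers, whose sums differ between libraries. The submitters' processing notes name STAR 2.7.3, DESeq2 and the build GRCm38, and the counting tool, annotation and strandedness are not given in the sources used here. The members and lists were chosen with earlier results of these data known.

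Counts were tested in R 4.3.3 with edgeR 4.0.16 (filterByExpr by fraction, TMM, glmQLFit and glmQLFTest, sex as covariate, Benjamini-Hochberg over 17344 genes, threshold 0.05, two-sided). Each standard error is the log2 fold change over the root of F. A prior count of 2 went into log2 CPM. Ratios of members used counts plus 0.5 per kilobase of merged GENCODE M21 exons. Libraries of an animal were taken as pairs from their names. The deviations of its 2 libraries from the fraction means correlated across genes at 0.43 (Female1), 0.32 (Female2), −0.02 (Male1) and 0.28 (Male2). With Low libraries of other animals, the High libraries reached at most −0.05, 0.10, 0.35 and 0.17, in the same order. The pairing by name was thus not borne out for Male1. The labels do not say that animals were pooled.

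Genes named were all 8 members, up to 2 per direction and list with the largest change (adjusted p under 0.05, mean of at least 5 CPM), and the 3 nearest patterns per member, of which some are printed. A gene that this rule names is not reported here. Rragd, Bhlhe41, Ppp2cb, Rcan1, Vac14, Itgb1, the CLEAR targets with a motif and genes of other cell types were named after their values were seen. Of the symbols, 53388 of 55276 had a length. The target Tmem55b was not found under that symbol. Tested on simulated counts in which 200 genes were shifted by 1.5 (log2), the High against Low fit recovered 80.5% and called 11 others of 17007 genes.

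Alternatives were RLE, upper-quartile and total-count scaling, no filter, a minimum of 10 counts in each library, DESeq2 1.42.0, voom (limma 3.58.1), robust dispersion, a fit with no sex term, a replicate block by animal, and each library left out. No pair of libraries of a fraction agreed within sampling noise (chi-square per degree of freedom at least 17.7).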

Additional observations from a re-analysis of the deposited data

How the results depend on the processing

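Tfe3, Fnip2 and Mcoln1 were higher under all 18 alternatives and passed in each, except Fnip2 and Mcoln1 under total counts. The number of members past the threshold was 3, and it was 5 under total counts and under upper-quartile scaling, 4 with the replicate block (where Zkscan3 came in at −0.38) and 3 to 4 when 1 library was left out. Upper-quartile scaling added Tfeb (−0.44, adjusted p by edgeR 0.0378) and Zkscan3 (−0.48, adjusted p by edgeR 0.0429). The block changed no other call among the members. Over the alternatives the adjusted p ran from 0.000569 to 0.487 for Tfeb and from 0.00311 to 0.238 for Zkscan3.

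Values near 0 changed sign. Flcn was 0.067 under RLE and under DESeq2, and −0.085 to 0.10 with 1 library left out. Fnip1 was −0.50 under total counts, −0.056 under upper-quartile scaling and −0.15 to 0.27 with 1 library left out. Under total counts the list medians became −0.15 (nutrient switch), −0.18 (retention), −0.35 (phosphatases) and −0.13 (channels), beside −0.64 for all genes. That of the E-box factors was −0.78 under total counts and ran from −0.36 to 0.0098 with 1 library left out, the last without Low Male2.

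The replicate block of the ratios, an exact sign permutation over 4 animals, cannot go below p = 0.125. It gave −1.28 for Tfeb to Tfe3, −1.51 for Mitf to Tfe3 and 1.08 for Fnip2 to Fnip1 (adjusted p 0.167 each). With 1 library left out these 3 ran from −1.34 to −1.21, from −1.74 to −1.17 and from 0.999 to 1.18, with adjusted p of 0.0381 to 0.0762, and Mitf to Tfeb from −0.49 to 0.083, the last without High Male2. Genes passing over the whole table ran from 7269 to 10708. The interaction of sex and fraction gave 0 genes under each alternative run. Mitf had the fewest counts of the members, 12 to 52 in a library.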
